A study of Homo sapiens with 6 samples.

Results

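The ELAVL and CELF families are RNA-binding proteins that are close in sequence and that decide the fate of many mRNAs. The 10 genes ELAVL1, ELAVL2, ELAVL3, ELAVL4, CELF1, CELF2, CELF3, CELF4, CELF5 and CELF6 were taken by symbol from the 60651 gene identifiers counted in neuroblastoma cells with and without induced MYCN. All 10 were found. ELAVL2, ELAVL3, ELAVL4 and CELF3 to CELF6 were treated as the 7 neuronal members, and ELAVL1, CELF1 and CELF2 as the 3 broadly expressed ones. Every library came from SK-N-AS, an established human neuroblastoma line, into which a tetracycline repressor and a MYCN gene under its control had been stably introduced. Controls and induced cells therefore carry the same construct, and both were grown under the selection antibiotics G418 and blasticidin. The 3 control libraries are titled ETOH and labelled as control. The 3 MYCN-induced libraries are titled Tet and come from cells given tetracycline for 5 days, or 120 h in the titles. The labels speak of single clones without giving the clone of each library, and cells that received tetracycline but carry no MYCN construct were not analysed here, so an effect of the drug and one of MYCN cannot be told apart. Total RNA freed of ribosomal RNA was sequenced, and read pairs were counted over the exons of each gene.

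ELAVL proteins, also called Hu proteins, bind AU-rich and U-rich stretches, mostly in the untranslated tail of an mRNA, and generally protect the message from decay and favour its translation. ELAVL1 (HuR) is made in nearly all cells, whereas ELAVL2 (HuB), ELAVL3 (HuC) and ELAVL4 (HuD) are classical products of neurons and are also made by neuroblastoma cells. CELF proteins bind GU-rich elements. CELF1 speeds the removal of the poly(A) tail and the decay of its targets, and several members steer alternative splicing, often against the muscleblind (MBNL) proteins. CELF3, CELF4, CELF5 and CELF6 are made chiefly in the nervous system.

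The libraries held from 64500589 to 102249336 counted pairs, so counting noise is small for all members but the rarest. MYCN itself, which checks the labels, stood at 30.3, 35.5 and 32.4 CPM in control replicates 1, 2 and 3 and at 211, 221 and 199 CPM in induced replicates 1, 2 and 3, where CPM are the counts of a gene scaled to a common library total (TMM normalization). It rose by 2.68 on the log2 scale (standard error 0.08), with an adjusted p of 4.15e-05 in edgeR's quasi-likelihood test. Induced replicate 3 stood apart. On the first principal component, which took up 49.4% of the variance, it lay at 45.7, induced replicates 1 and 2 at 7.69 and 7.83, and the controls between -27.6 and -15. Results that rest on it are given with and without it. In the order of replicates 1, 2 and 3, all values per library below are written for controls first and induced libraries second. The study calls the replicates independent experiments, and the labels do not say what separates them. The p-values weigh the difference between the groups against the variation within these 3 and 3 samples, whatever that variation stands for.

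A comparison of levels between genes needs a correction for exon length, for which TPM, which count transcripts per fixed total, were computed. The members ran from abundant to scarce. ELAVL4, CELF1 and ELAVL1 were abundant, at 45.9 ± 5.03, 37.4 ± 3.71 and 26.4 ± 0.233 TPM in control cells (SD, n = 3 each), and ELAVL4 lay above 95.7% of the 29086 tested genes. ELAVL2 followed at 3.70 ± 0.218 TPM, above 52.8% of the tested genes, and CELF3 at 1.19 ± 0.0984 TPM, above 29.4%. The other 5 members were under 1 TPM in every library. Their control means ran from 0.572 TPM for ELAVL3 and 0.449 TPM for CELF2 through 0.246 for CELF6 and 0.0747 for CELF5 to 0.0162 for CELF4. Neighbours in this order did not overlap between control libraries, except ELAVL3 and CELF2. In induced cells CELF1, at 35.7 ± 3.58 TPM, and ELAVL4, at 35.6 ± 2.39 TPM (SD, n = 3 each), overlapped, and so did CELF6, ELAVL3 and CELF2 at 0.281, 0.238 and 0.222 TPM. Of the 7 neuronal members, ELAVL4 was the only abundant one.

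**Figure D1:**
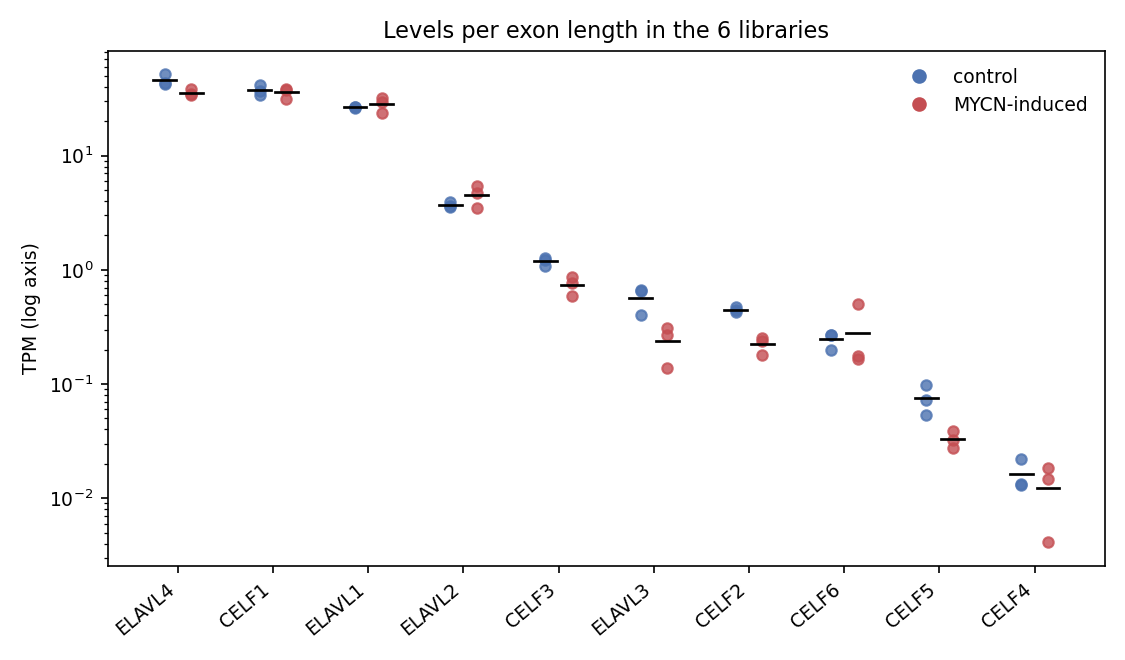
TPM of the 10 members on a log axis, 1 point per library (blue, control; red, MYCN-induced), with a black bar at the mean of each group. ELAVL4, CELF1 and ELAVL1 lie above 20 TPM in all 6 libraries, and CELF6, CELF5, CELF4, CELF2 and ELAVL3 lie under 1 TPM.

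The members were tested with all other genes that had at least 10 counts in at least 3 libraries. CELF4, with 1.33 to 8.50 counts per library, did not reach that level, which left 9 members. CELF2 and CELF3 fell past the threshold (adjusted p under 0.05 over all 29086 genes) and no member rose past it. That is 2 of 9 tested members lower, while 692 of all tested genes (2.38%) were lower and 298 (1.02%) higher. By class, 1 of 3 broadly expressed members and 1 of 6 tested neuronal members (CELF3) fell. The broadly expressed one was CELF2, which was scarce in these cells, while the abundant ELAVL1 and CELF1 did not pass the threshold. The groups did not overlap in CPM for 4 members that were lower in induced cells (ELAVL3, CELF2, CELF3 and CELF5) and for 1 that was higher (ELAVL2), against 14.7% of all tested genes lower and 11.5% higher without overlap (26.3% in all). The median log2 fold change was -0.343 over the 9 members, and -0.000384 over all tested genes. For the 6 neuronal members it was -0.526, and for the 3 broadly expressed members -0.0635. In bulk RNA, fewer cells that make a transcript and less of it per cell cannot be told apart.

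**Figure D2:**
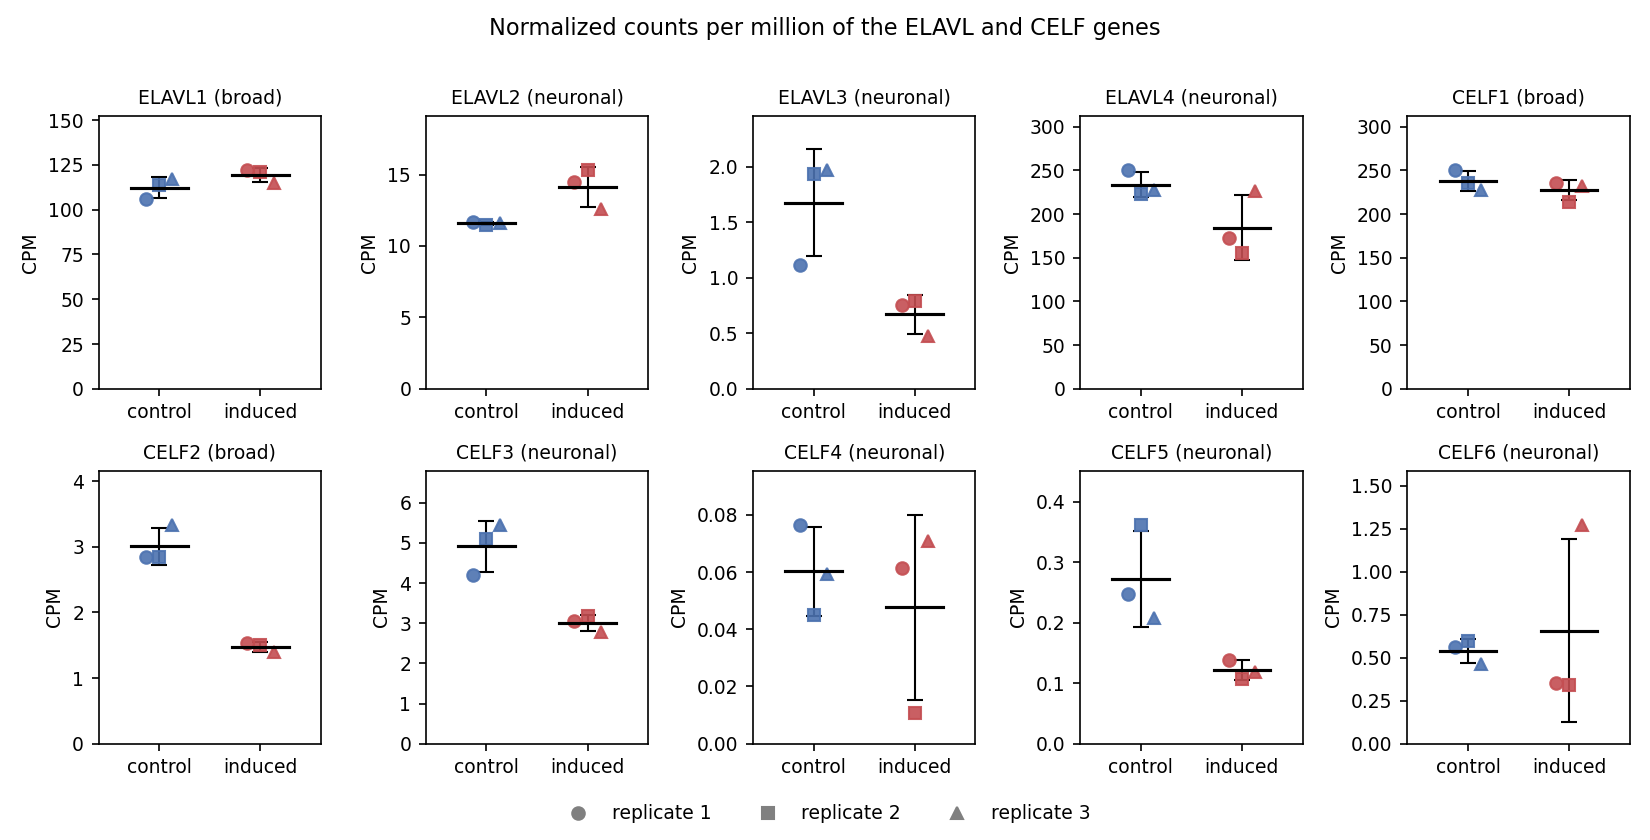
TMM-normalized CPM of each member in every library (blue, control; red, MYCN-induced; circle, square and triangle for replicates 1, 2 and 3), with a bar at the mean and error bars of 1 SD. CELF2, CELF3, ELAVL3 and CELF5 have all induced points below all control points, ELAVL2 has them above, and in ELAVL4 and CELF6 induced replicate 3 lies away from the other induced libraries.

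CELF2 encodes a splicing regulator of heart, brain and lymphocytes that also acts on mRNA decay and translation. Its gene lies on chromosome 10 of GRCh38 from 10798397 to 11336675 on the plus strand (ENSG00000048740.18), and none of its 10978 exon bases is shared with another gene. CELF2 stood at 2.84, 2.85 and 3.33 CPM in control cells and at 1.54, 1.5 and 1.39 CPM in induced cells. All 3 induced libraries lay below all 3 controls, with little spread in either group. The mean fell from 3.01 ± 0.282 to 1.48 ± 0.0775 CPM (SD, n = 3 each), or to 49.1% of control in the fit, a log2 fold change of -1.03 (95% interval -1.32 to -0.73, adjusted p = 0.00896 from edgeR). These levels rest on 253 to 338 counts per control library and on 100 to 140 per induced library. Without control replicate 2 the value was -1.06 (edgeR adjusted p = 0.061) and without control replicate 3 it was -0.95 (adjusted p = 0.0556), so the call ended while the size held. Without induced replicate 3 it was -0.98 (adjusted p = 0.00965).

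CELF1 is the abundant member of its family and a factor of GU-rich element decay (chromosome 11 of GRCh38 from 47465933 to 47565569, minus strand). It stood at 250, 236 and 227 CPM in controls and at 236, 214 and 232 CPM in induced cells. The groups overlapped, and the log2 fold change was -0.06 with a 95% interval from -0.22 to 0.10 (adjusted p = 0.684 from edgeR). It shares 234 exon bases with NDUFS3 and 140 with PTPMT1, both on the opposite strand, whose adjusted p were 0.888 and 0.925. The ratio of CELF2 to CELF1 on the log2 CPM scale was -6.46, -6.37 and -6.09 in controls and -7.26, -7.16 and -7.38 in induced cells. Every induced library thus held less CELF2 per CELF1 than any control, with a difference of -0.96 between the means, which was not tested.

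CELF3, a neuronal splicing regulator, lies on chromosome 1 of GRCh38 from 151700058 to 151716803 on the minus strand (ENSG00000159409.15). It stood at 4.20, 5.10 and 5.44 CPM in control cells and at 3.05, 3.18 and 2.78 CPM in induced cells. No induced library reached the lowest control. Of its exon bases 113 are shared with ENSG00000227045 on the opposite strand (adjusted p = 0.852). The mean fell from 4.91 ± 0.641 to 3.0 ± 0.201 CPM (SD, n = 3 each), or to 61.1% of control in the fit, a log2 fold change of -0.71 (95% interval -1.02 to -0.40, adjusted p = 0.0359 from edgeR). The call was the less steady of the pair. Leaving out 1 library kept the log2 fold change between -0.82 and -0.63, but of the 6 such fits only that without induced replicate 3 (-0.65, adjusted p = 0.0406) stayed past the threshold. The adjusted p was 0.0509, 0.184 and 0.145 without control replicates 1, 2 and 3, and 0.12 and 0.071 without induced replicates 1 and 2.

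The other neuronal CELF genes were rare. CELF5, made chiefly in the brain (chromosome 19 of GRCh38 from 3224661 to 3297076), had 26.5, 32.5 and 21 counts in control libraries and 9, 10 and 10 in induced libraries. All induced libraries lay below the controls, also as CPM, which ran from 0.207 to 0.361 in controls and from 0.107 to 0.139 in induced cells. It lay -1.16 from control on the log2 scale, with a wide 95% interval from -1.90 to -0.43, and it did not pass the threshold (adjusted p = 0.0992 from edgeR, and in none of 11 alternatives). CELF4, a regulator of synaptic mRNAs, had 8.50, 4.50 and 5.50 counts in control libraries and 4.50, 1.33 and 5.50 in induced libraries, so that no difference could be seen at this depth. It lies on chromosome 18 of GRCh38 from 37243040 to 37565827.

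CELF6, another neuronal splicing regulator, had induced values on both sides of the controls. It had 59, 52.7 and 46.7 counts in control libraries and 23.0, 32.2 and 108 in induced libraries. Induced replicates 1 and 2 lay below all controls and induced replicate 3 above them. The log2 fold change was 0.29 with a 95% interval from -0.84 to 1.43 (adjusted p = 0.807 from edgeR), and without induced replicate 3 it turned to -0.62 (adjusted p = 0.123). The gene (chromosome 15 of GRCh38 from 72284727 to 72320157, minus strand) shares 3212 of its 3616 exon bases (88.8%) with ENSG00000260729 on the same strand, whose exons also overlap HEXA, and 1546 (42.8%) with ENSG00000273025, whose exons also overlap PARP6. Only 243 bases (6.72%) belong to CELF6 alone. The authors split a pair between the genes it overlaps, so the CELF6 count is uncertain. ENSG00000260729 stood at 10.5, 11.4 and 12.2 CPM in controls and at 12.5, 12.4 and 18.6 CPM in induced cells, with induced replicate 3 again the highest.

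No ELAVL gene passed the threshold with all libraries, and their values lay on both sides of 0. ELAVL4 (HuD), a marker of neuronal differentiation that lies on chromosome 1 of GRCh38 from 50024029 to 50203772, stood at 250, 223 and 228 CPM in controls and at 172, 155 and 226 CPM in induced cells. Induced replicates 1 and 2 were lower than every control, and induced replicate 3 lay among the controls. ELAVL4 had a log2 value of -0.34 (95% interval -0.65 to -0.03), with an adjusted p of 0.224 from edgeR that did not pass the threshold. Without induced replicate 3 it was -0.51 and passed (adjusted p = 0.00977). On the TPM scale, whose library totals are not TMM-normalized, the groups did not overlap, at 51.7, 43.4 and 42.7 TPM in controls and 34.6, 33.9 and 38.3 TPM in induced cells. Induced replicate 3 had the lowest TMM factor, 0.9316, against 1.001 to 1.03 for the other libraries.

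ELAVL3 (HuC), a neuronal member on chromosome 19 of GRCh38 from 11451326 to 11481046, stood at 1.12, 1.94 and 1.97 CPM in controls and at 0.755, 0.794 and 0.472 CPM in induced cells. The groups did not overlap, although control replicate 1 lay nearer to the induced libraries than to the other controls. Its log2 fold change, -1.31 (95% interval -1.97 to -0.66), was the most negative of the 9 and narrowly missed the threshold (adjusted p = 0.0516 from edgeR). In 5 of 11 alternatives it passed, among them DESeq2 (adjusted p = 0.00112), upper-quartile normalization (0.0313), library size only (0.0492) and the fit without control replicate 1 (0.0492). In the other fits that left out 1 library the adjusted p ran up to 0.219. It shares 256 exon bases (5.38%) with a same-strand locus, ENSG00000267477, that also overlaps ZNF653.

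ELAVL2 (HuB; chromosome 9 of GRCh38 from 23690104 to 23826337, minus strand) lay higher in induced cells. It stood at 11.7, 11.5 and 11.6 CPM in controls and at 14.5, 15.3 and 12.6 CPM in induced cells. Each induced library lay above the tightly grouped controls, with induced replicate 3 nearest to them. The log2 fold change was 0.29 (95% interval 0.06 to 0.52, adjusted p = 0.171 from edgeR), and 0.37 without induced replicate 3 (adjusted p = 0.0276), which passed. As TPM the groups overlapped, at 3.94, 3.64 and 3.52 in controls and 4.74, 5.46 and 3.49 in induced cells. The log2 ratio of ELAVL2 to ELAVL4 CPM, which no scaling between libraries touches, was -4.42, -4.28 and -4.30 in controls and -3.57, -3.34 and -4.16 in induced cells. All induced libraries held more ELAVL2 per ELAVL4 than any control, by 0.64 on average, a difference that was not tested.

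ELAVL1 (HuR), the broadly expressed member, lies on chromosome 19 of GRCh38 from 7958573 to 8005659 on the minus strand. It stood at 106, 114 and 117 CPM in controls and at 122, 121 and 115 CPM in induced cells. The groups overlapped, and the log2 fold change of 0.09 had a 95% interval from -0.06 to 0.24 (adjusted p = 0.528 from edgeR). An antisense locus, ENSG00000269813, lies wholly within its exons over 528 bases (7.58% of ELAVL1), where pairs of either gene could not be separated without a strand option. That locus stood at 6.36, 5.24 and 5.18 CPM in controls and 4.68, 3.95 and 5.52 CPM in induced cells, with overlapping groups.

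**Figure D3:**
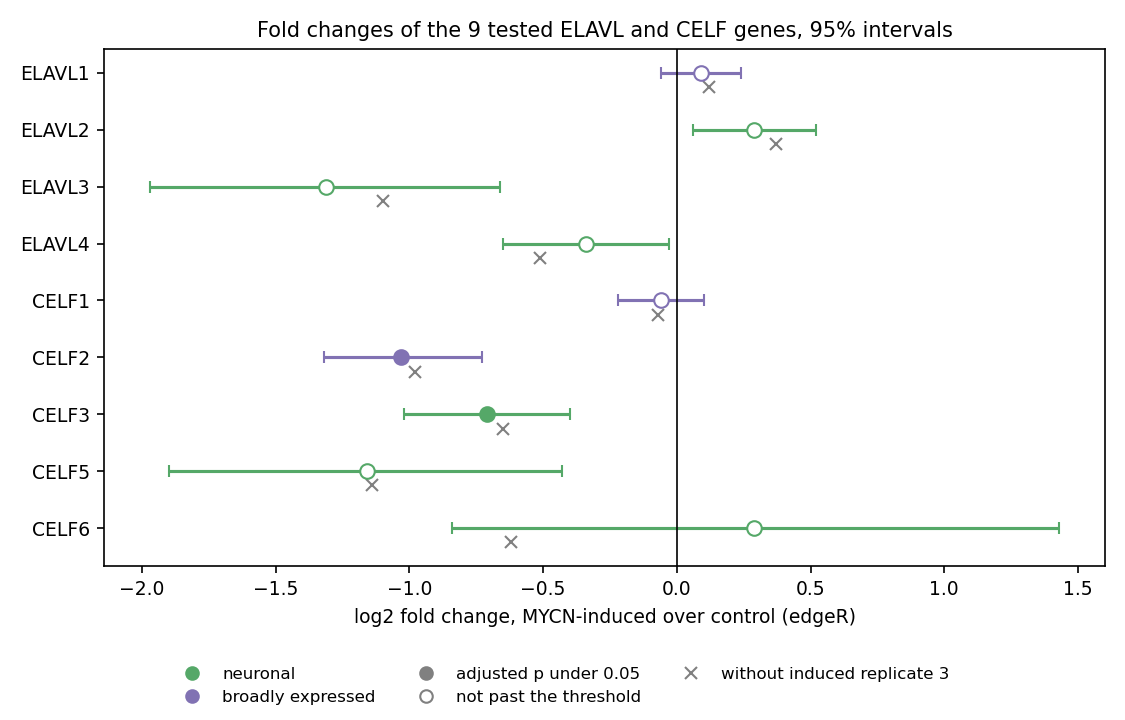
Log2 fold changes (MYCN-induced over control, edgeR) of the 9 tested members with 95% intervals, green for neuronal and purple for broadly expressed members, and crosses for the fit without induced replicate 3. Filled circles (CELF2 at -1.03, CELF3 at -0.71) have an adjusted p under 0.05 over all genes, and CELF6 is the only member whose cross lies on the other side of 0.

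With all libraries, 2 of 9 members were called, and without induced replicate 3 the count was 4 of 9, with ELAVL4, CELF2 and CELF3 lower and ELAVL2 higher. The share of all tested genes called in either direction also went up, from 3.4% to 8.12% (2339 of 28797). Leaving out control replicate 2 or control replicate 3 left 0 members called, and induced replicate 1 or induced replicate 2 left 1, CELF2. At an unadjusted p under 0.05, 6 of 9 members passed with all libraries (ELAVL2 higher; ELAVL3, ELAVL4, CELF2, CELF3 and CELF5 lower), against 18.7% of all tested genes. Across normalizations, filters and DESeq2, members kept their direction wherever they were tested, which for ELAVL3, CELF5 and CELF6 leaves out the filter of 100 counts in every library. DESeq2 called 3 members (CELF2, CELF3 and ELAVL3), all lower, beside 4.12% of all tested genes called lower and 7.23% in either direction.

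**Figure D4:**
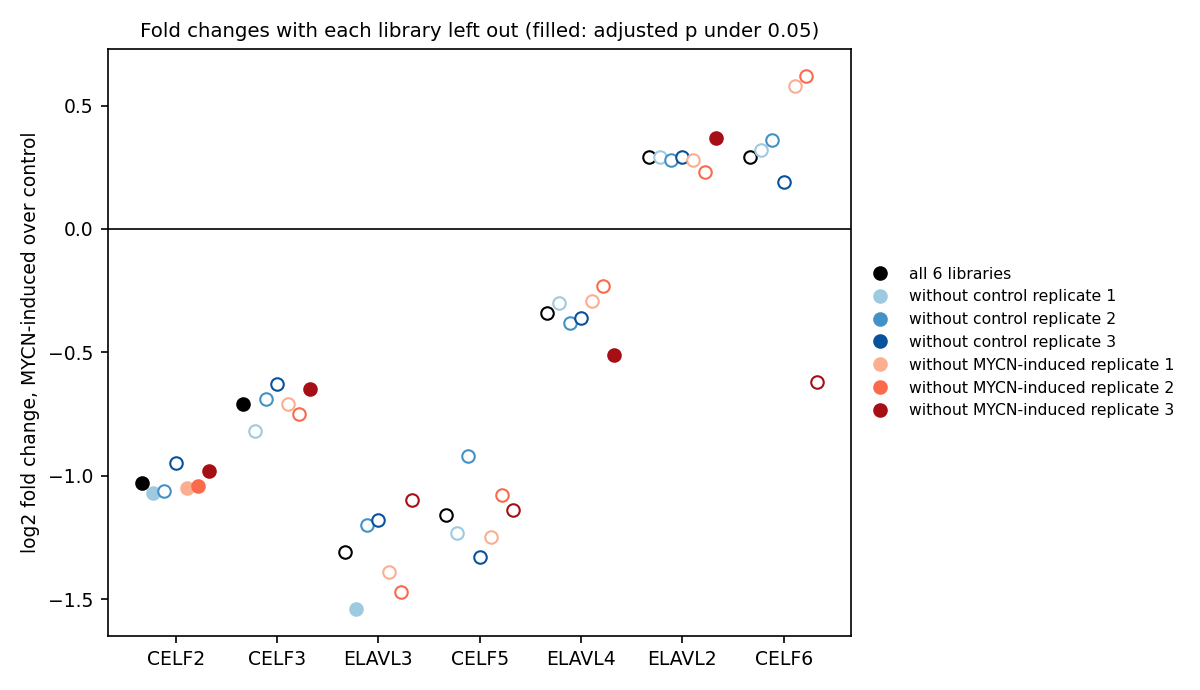
Log2 fold changes of 7 members in the fit with all 6 libraries (black) and in the fits that left out each library in turn (blue shades, a control; red shades, an induced library), filled where the adjusted p is under 0.05. CELF2 stays near -1 in every fit, ELAVL4 and ELAVL2 are filled only without induced replicate 3, and CELF6 crosses 0 there.

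The make-up of each family was set by its abundant members. Neuronal genes held 68.0%, 64.1% and 64.1% of the summed ELAVL TPM in controls and 57.4%, 55.4% and 64.1% in induced cells. ELAVL4 alone held 59.8 ± 2.49% in control and 52.0 ± 5.83% in induced cells (SD, n = 3 each). Induced replicate 3 matched the controls and the other induced libraries lay below them. The summed ELAVL level was 76.6 ± 5.12 TPM in control and 68.7 ± 3.06 TPM in induced cells (SD, n = 3 each). CELF1 alone made up 95.0 ± 0.616% of the summed CELF TPM in control and 96.5 ± 0.445% in induced cells. CELF3 to CELF6 together held 3.33%, 4.13% and 4.23% in controls and 2.50%, 2.76% and 3.43% in induced cells. The groups overlapped slightly, since induced replicate 3, which had the highest CELF6 count, lay above the lowest control. CELF2 held 1.03%, 1.09% and 1.32% in controls and 0.603%, 0.645% and 0.547% in induced cells, without overlap. These shares were not tested.

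E-boxes have the general form CANNTG, and MYC proteins bind above all CACGTG. The promoters of the members were read for both motifs. Both read the same on either strand, and each CACGTG is also a CANNTG. RefSeq promoters (GRCh38.p14, 250 bases before to 50 bases after a start) were at hand for 8 members, with 33 starts. CACGTG was found in 1 of 33 (3.03%), against 2548 of 35116 promoters of all genes (7.26%), and CANNTG in 23 of 33 (69.7%), against 68.7% of all. The first sequence is the single CACGTG of the members, 27 bases after a start of ELAVL4 (chr1:50103924-50103953, plus strand). The others show the CANNTG nearest to a start for both called genes, 2 bases after a start of CELF2 (chr10:11018746-11018775, plus strand) and 181 bases before the start of CELF3 (chr1:151716967-151716996, minus strand). Neither of these CANNTG sites is a CACGTG. Capitals mark the motif.
ELAVL4: tttgtgctgttgCACGTGaatgctctggaa
CELF2: gcacgcttgtgtCATTTGaaatgcggggct
CELF3: tatcaacaggacCAGCTGctcttctggggg
A match describes the letters in these windows and no more, since binding of MYCN was not measured here.

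Lists of factors that share the binding elements or splicing targets of the families were read from the same fit, in which 3.4% of all tested genes were called with all libraries, 8.12% without induced replicate 3 and 7.23% with DESeq2. Of 14 genes for AU-rich and GU-rich element binding and decay, all tested, 1 rose and none fell, 11 were above 0, and the median log2 fold change was 0.118. The count was 3, all higher, without induced replicate 3, 2 with DESeq2 and 0 with library size only or without any 1 of the other 5 libraries. The gene that rose was ZFP36L2, a zinc-finger protein that promotes decay of AU-rich mRNAs, from 17.5 ± 0.356 to 24.2 ± 1.70 CPM (SD, n = 3 each; log2 fold change 0.47, adjusted p = 0.0291 from edgeR). Its call ended with library size only (adjusted p = 0.064) and in 5 of the 6 fits without 1 library, all but that without induced replicate 3. For KHSRP, which drives decay through AU-rich elements, the log2 value was 0.24 (adjusted p = 0.554), and for PARN, a deadenylase that CELF1 recruits, it was 0.13 (adjusted p = 0.430).

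Among 12 other neuronal RNA-binding proteins, 9 were tested, 1 rose and none fell with all libraries, with a median of -0.000924, while without induced replicate 3 there were 1 higher and 1 lower. MSI1, a translational regulator of neural progenitors, rose from 34.6 ± 3.86 to 52.2 ± 1.49 CPM (SD, n = 3 each; log2 fold change 0.59, adjusted p = 0.0192 from edgeR). It stood at 30.3, 35.9 and 37.6 CPM in controls and at 53.3, 50.5 and 52.8 CPM in induced cells, without overlap. The call ended without control replicate 2 (adjusted p = 0.108), control replicate 3 (0.0598) and induced replicate 1 (0.0868). NOVA2 and PTBP2, neuronal splicing regulators, had log2 fold changes of -0.27 and -0.08, and neither passed.

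None of the 6 splicing regulators that share targets with CELF proteins passed the threshold in edgeR, while DESeq2 called 2, and their median was 0.204. In edgeR 2 of the 6 had an unadjusted p under 0.05, against 18.7% of all tested genes. MBNL3, the member with the smallest p, stood at 138, 127 and 123 CPM in controls and at 89.3, 85.0 and 46.4 CPM in induced cells. Its groups did not overlap, and the spread among induced libraries was wide (log2 fold change -0.81, adjusted p = 0.0965 from edgeR). It passed with DESeq2 (adjusted p = 0.0125), with no count filter (0.0367) and without induced replicate 3 (-0.56, adjusted p = 0.00466). The value for MBNL1 was 0.32 (adjusted p = 0.1).

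Of 24 mRNAs known as ELAVL targets, 22 were tested, and 1 fell and none rose with all libraries. Their log2 fold changes ran from -0.91 to 1.07 with a median of 0.0181, 12 above 0 and 10 below. Without induced replicate 3 the list had 2 higher and 3 lower, and without any other library 0 were called. With all libraries, 8 of the 22 had an unadjusted p under 0.05 in edgeR, against 18.7% of all tested genes. The target that fell was CDKN1A, the cyclin-dependent kinase inhibitor p21, at 10.8, 11.7 and 11.2 CPM in controls and 5.09, 4.94 and 7.87 CPM in induced cells. No induced library reached the controls (log2 fold change -0.91, adjusted p = 0.0411 from edgeR). Its call held in 1 of the 6 fits without 1 library, that without induced replicate 3 (-1.16, adjusted p = 0.00226), and the adjusted p ran up to 0.188 in the others. For MYC and CCND1, further known targets, the log2 fold changes were -0.16 (adjusted p = 0.757 from edgeR) and -0.42 (0.0991), and neither passed. The groups overlapped for MYC, while CCND1 was lower in every induced library than in any control. In this list 5 were lower and 2 higher without overlap, against 14.7% and 11.5% of all tested genes.

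Marker genes were read from the same fit, beside these values. Of all tested genes, 3.4% were called with all libraries, 8.12% without induced replicate 3 and 7.23% with DESeq2. Adrenergic neuroblastoma markers ranged from 0.549 TPM for TH and 0.777 TPM for CHGB to 58.4 TPM for GATA3 and 200 TPM for HAND2 in control cells. Over the 9 read, the median log2 fold change was -0.553, with 5 below 0 and 4 above, among the latter GATA3 (0.11) and HAND2 (0.09). None rose past the threshold and 2 fell, beside 2.38% of all tested genes lower. The count was 4 with DESeq2 and 4, all lower, without induced replicate 3, 0 with a filter of 100 counts in every library, and 0 or 1 without any other library. Those that fell were CHGA (log2 fold change -1.21, adjusted p = 0.0492 from edgeR) and CHGB (-2.13, adjusted p = 0.0259), which encode chromogranins of secretory granules. The summed level of this list was 325 to 394 TPM in controls and 299 to 415 TPM in induced cells.

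Several neuronal markers were scarce. Of 13, 7 were under 1 TPM in every library, with STMN2 at 0.0106 TPM in control cells. Of the 10 tested, DCX, a microtubule protein of migrating neurons, fell (-1.20, adjusted p = 0.011 from edgeR), SYP, a synaptic vesicle protein, fell (-0.99, adjusted p = 0.0376), and MAP2, a dendritic microtubule protein, rose (0.83, adjusted p = 0.0122). The median was -0.124, and the 3 calls became 4 (2 in each direction) without induced replicate 3 and 0 to 2 without any other library. The summed level was 65.4 to 69.1 TPM in controls and 60.6 to 68.7 TPM in induced cells. The fall of CELF3 thus stood beside neuronal markers that moved both ways, and their part in the result was not tested.

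Of 10 mesenchymal neuroblastoma markers, 9 were tested and 1, FN1 (fibronectin), fell (-0.71, adjusted p = 0.033 from edgeR), beside 2.38% of all tested genes lower. In this list 7 were above 0, with a median of 0.284. The groups did not overlap for 4 that were higher in induced cells (VIM, WWTR1, FOSL1 and FOSL2) and 1 that was lower. Of all tested genes, 11.5% were higher and 14.7% lower without overlap. Induced replicate 3 was far the highest for FOSL1 (16.5, 15.3 and 36.9 CPM in induced cells) and FOSL2 (18.4, 16.4 and 41.1 CPM). Without induced replicate 3 the list had 5 higher and 1 lower, DESeq2 called 4, no count filter gave 3, and without any other library 0 were called. The list stood at a summed level of 197 to 212 TPM in controls and 213 to 259 TPM in induced cells. Among Schwann cell (2 of 5 tested), immune (2 of 4) and endothelial markers (2 of 3) none passed. Of these, 1 had an unadjusted p under 0.05 in edgeR, against 18.7% of all tested genes. It was the endothelial CDH5 (log2 fold change -1.67, adjusted p = 0.0596), which lay under 0.1 TPM. Among the alternatives CDH5 passed only with upper-quartile normalization (-1.70, adjusted p = 0.0498 from edgeR). Their summed levels were 0.585 to 0.608, 3.61 to 4.43 and 0.209 to 0.247 TPM in controls and 0.54 to 0.576, 3.35 to 3.73 and 0.13 to 0.171 TPM in induced cells, CD3E was at 0 in every library and SOX10 was at 0.463 TPM in control cells. Leaving out any control ended the calls of DCX, SYP, CHGB and FN1. The call of MAP2 ended without control replicate 2 or 3, and that of CHGA without control replicate 1 or 3 or with a filter of 100 counts in every library (adjusted p = 0.062). Without induced replicate 1 the calls of SYP, CHGB, CHGA and FN1 ended, and without induced replicate 2 those of SYP, CHGA and FN1.

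The genes most like the called members over the 6 libraries were looked up among 15156 tested genes with a symbol and a mean of at least 1 CPM, by Pearson's r of log2(CPM + 0.5). For CELF2 they were ACBD5 (r = 0.9959), TNFRSF19 (0.9958) and NELL2 (0.9949), and for CELF3 they were CCNJL (0.9969), PFKFB4 (0.9927) and FCGRT (0.9917). The 6 points come from 2 groups, and 709 genes exceeded 0.9 with CELF2 and 521 with CELF3, so the values describe a pattern that many genes had. The sizes differed, with log2 fold changes from -1.35 for TNFRSF19, a receptor of the tumour necrosis factor family, and -0.92 for NELL2, a secreted neural protein, to -0.18 for ACBD5.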

How the data were processed

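The authors aligned reads with STAR (2.7.1a in the submitters' processing notes) to GRCh38 and deposited estimated counts, that is, read pairs per gene over exons, without normalization. The file header names featureCounts 1.6.4 with unique alignments, equal fractions for pairs over several genes and no strand option. The processing notes name version 1.5.1, and the methods a strand option. Of 60651 identifiers, 99.65% matched a symbol in GENCODE release 44.

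Counts were rounded. A gene entered the test with 10 or more counts in 3 or more libraries, and 29086 did (edgeR 4.0.16, R 4.3.3; TMM, quasi-likelihood, Benjamini-Hochberg, threshold 0.05). The standard error is the log2 fold change over the square root of F. TPM use the exon lengths of the deposited counts. Total counts ran from 64500589 to 102249336, and the biological coefficient of variation was 0.153. Replicates differed beyond sampling noise (chi-square per gene 12.1 to 145.6), so each counted as 1 sample. The scripts were tested on simulated data.

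The members and gene lists were chosen with earlier results of these data known. Lists came from general knowledge. In a list, genes past the threshold were named (at most 4, by p) or else that with the smallest p. Also named were genes sharing exon bases with a member and the 3 genes most alike to a called member. NOVA2, PTBP2, KHSRP, PARN, MBNL1, MYC, CCND1, HAND2, STMN2, TH, GATA3, VIM, WWTR1, FOSL1, FOSL2 and CD3E were added after their values were seen. 2 list entries are not reported here and were left out of the lists. Alternatives were DESeq2 1.42.0, scaling by library size only or by upper quartile, no filter or a filter of 100 counts in all libraries, the replicate number as a block, leaving out each library, thresholds of 0.01 and 0.1, and levels without length correction.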

Additional observations from a re-analysis of the deposited data

How the results depend on the processing

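The count of members called, 2 of 9, was 3 with library size only, upper-quartile normalization, DESeq2 and no count filter, and 2 with at least 100 counts in every library. It was 1 at an adjusted p threshold of 0.01 and 4 at 0.1, and it ran from 0 to 4 when a library was left out. Over all genes, the 990 calls became 2103 with DESeq2, 631 with at least 100 counts in every library, 181 at 0.01 and 1948 at 0.1, and ran from 90 to 2339 when a library was left out. The count fell without each library except induced replicate 3. With the replicate number as a block, 1 member (CELF2, -1.02, adjusted p = 0.022 from edgeR) and 840 genes were called, and CELF3 had an adjusted p of 0.0546. The block also ended the calls of ZFP36L2 (0.0515) and SYP (0.0633) and brought MBNL3 (-0.87, adjusted p = 0.0409) past the threshold. The labels do not say whether the numbers pair the samples, and 3 libraries per group cannot settle it. Deviations from the group means correlated at 0.299, 0.006 and 0.09 between same-numbered libraries. Between libraries of unlike number they ran from -0.272 to 0.1. The highest value was that of control replicate 1 with induced replicate 1, while control replicate 2 correlated best with induced replicate 3 (0.067).

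Shares from counts without a length correction were 68.7% in place of 65.4% for the neuronal ELAVL genes in controls, and 2.36% in place of 3.90% in controls and 1.65% in place of 2.90% in induced cells for CELF3 to CELF6. Leaving out a library left these 4 mean shares within 1 SD. Signs changed only for genes far from the threshold. When a library was left out, CELF6 ran from -0.62 to 0.62 and PTPRC from -0.35 to 0.04, both turning without induced replicate 3. SOX10 ran from -0.13 to 0.06 (turning without induced replicate 2). NDUFS3 ran from -0.10 to 0.06 (turning without induced replicate 1), PTPMT1 from -0.05 to 0.00 (control replicate 3 or induced replicate 3), ENSG00000227045 from -0.46 to 0.03 (induced replicate 3) and ENSG00000273025 from -0.13 to 0.10 (control replicate 1 or induced replicate 2), the last also at 0.00 with DESeq2 and with no count filter. The causes were not tested. Depth limits CELF4 and CELF5, which had at most 8.50 and 32.5 counts per library.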
